A study of Mus musculus with 46 samples.

Results

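The 49 DNA fragments described here are candidate cis-regulatory elements (cCREs) that lie between the genes Gli2 and Inhbb on mouse chromosome 1, out of 232 cCREs in the reporter library of the Tfcp2l1 locus and 423 cCREs in the 3 loci of the study. They were chosen by position from a 361 kb stretch that runs from the start of Gli2 to the 3' end of Inhbb, with 3 of the 52 cCREs of that stretch left out by name. Those 3 were left out with their readouts known and are described no further: their mean boost index, a log2 value explained below, was 1.41 for E110, -1.13 for E145 and 3.45 for E166. The 49 are therefore not a full account of the stretch: its highest and its lowest mean boost index belong to E166 and E145.

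Each cCRE is a fragment whose deposited end lies 450 bp after its start. The first member, E107, starts at 119064216 and the last, E168, ends at 119411109 on chromosome 1 of the mm10 build, as the deposited table gives them. The fragments were cloned, alone or as a pair of fragments, upstream of a barcoded reporter gene, and the plasmids were brought by nucleofection into E14TG2a, a line of mouse embryonic stem cells kept in 2i+LIF medium, which holds them in the naive pluripotent state. RNA was collected 24 h after transfection. All groups used here are 3 biological replicates of the same transfected library: there is no other genotype or treatment, and each comparison is between constructs within these replicates. The activity of a construct is the deposited ratio of its barcodes in reporter RNA to those in plasmid DNA. The replicates received the same plasmid pool, so their spread does not cover variation among the plasmids that carry a construct. Barcode numbers and read counts per construct were not analysed here, and the depth behind each activity is unknown.

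A cCRE is a stretch of DNA whose chromatin marks or accessibility make it a candidate enhancer. A reporter assay on transfected plasmids reads what the fragment can do beside a chosen partner, outside its own chromosomal place. Gli2 encodes a transcription factor that carries Hedgehog signals, and Inhbb encodes the beta B subunit of activins and inhibins, which are secreted ligands of the transforming growth factor beta family. Tfcp2l1, the gene that gives the locus its name, encodes a transcription factor of the pluripotency network. Enhancers often serve genes other than the nearest, and the study asked how freely enhancers and promoters of 1 locus combine.

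By RefSeq gene spans of the GRCm38.p6 assembly, the same coordinates as mm10, 43 of the 49 members lie between genes and 6 lie in the spans of 3 long non-coding RNA genes. E124 and E125 lie in Gm41934, E140 and E141 in Gm46144, and E153 and E154 in Gm33388. Exons and introns of these genes were not analysed here. E125 and E153 also reach into the RefSeq promoter windows of Gm41934 and Gm33388, and the bases of these members that fall in the windows are shown because both members were among the more active ones. Bases from the RefSeq promoter windows of Gli2 and Inhbb are shown beside them, since they are part of the tested promoter fragments P013 and P017 of the flanking genes. Those of Gli2 lie within its RefSeq gene span. Each stretch runs 5' to 3' on the strand of its gene, and capitals mark matches to ACAAAG or its reverse complement, the core of a SOX factor site.
E125, chr1:119125021-119125270, minus strand: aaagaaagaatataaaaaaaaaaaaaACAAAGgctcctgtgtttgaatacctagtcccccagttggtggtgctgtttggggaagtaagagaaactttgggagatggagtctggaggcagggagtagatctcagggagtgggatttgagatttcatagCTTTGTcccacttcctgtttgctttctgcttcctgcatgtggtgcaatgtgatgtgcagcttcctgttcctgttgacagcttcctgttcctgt
E153, chr1:119305493-119305696, plus strand: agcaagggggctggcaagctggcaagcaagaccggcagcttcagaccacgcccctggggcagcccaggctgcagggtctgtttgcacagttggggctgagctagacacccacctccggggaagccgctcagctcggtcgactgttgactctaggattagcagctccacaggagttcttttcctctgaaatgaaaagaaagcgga
P013 of Gli2, chr1:119053620-119053869, minus strand: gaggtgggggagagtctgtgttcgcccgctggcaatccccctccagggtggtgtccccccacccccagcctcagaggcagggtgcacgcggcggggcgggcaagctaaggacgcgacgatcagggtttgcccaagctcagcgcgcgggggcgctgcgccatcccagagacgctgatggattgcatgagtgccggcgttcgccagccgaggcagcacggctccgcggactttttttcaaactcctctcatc
P017 of Inhbb, chr1:119422249-119422498, minus strand: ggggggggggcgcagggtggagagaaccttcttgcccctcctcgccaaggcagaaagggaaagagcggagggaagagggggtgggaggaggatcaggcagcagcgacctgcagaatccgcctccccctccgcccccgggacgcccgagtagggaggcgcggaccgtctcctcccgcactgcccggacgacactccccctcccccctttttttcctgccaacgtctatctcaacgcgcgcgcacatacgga

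The E125 stretch held 2 matches to ACAAAG on both strands counted together. Of all 32851 RefSeq promoter windows cut to the same bases, 15.7% held at least 1 match and 1.68% at least as many as E125. The E125 stretch had 44.8% GC and no CpG in 250 bases, whereas the E153 stretch had 59.3% GC and 7 CpG in 204 bases. The Gli2 and Inhbb stretches had 67.2% and 68.0% GC with 22 and 21 CpG in 250 bases each. Median GC of all RefSeq windows cut to the same bases was 53.6% for E125, 51.5% for E153 and 52.4% for Gli2 and for Inhbb. CpG counts were not compared with other windows. No match was found in the 4 stretches to ATGCAAAT (POU), CATTGTT (SOX), AAGGTCA (ESRRB and related receptors), GGGTGTGG (KLF), TTCCNGGAA (STAT), GGAATG (TEAD), TGACTCA (AP-1), GACCACCCA (GLI) or CACGTG (E-box), on either strand. Motifs of TFCP2L1 and CTCF had been planned but were not among those searched. Whether the deposited starts count from 0 or from 1 is not given in the sources used here, so each overlap may shift by 1 base. The other members' sequences were not analysed here.

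The library holds 55980 constructs and 26 promoter fragments. Of the constructs, 5599 place a cCRE first and a promoter fragment second, and 44515 pair a cCRE with another cCRE. Constructs with a promoter before a cCRE are not described here, so every cCRE-promoter pair below has the cCRE first. Members took part in 1105 cCRE-promoter constructs with 23 promoters and in 16247 cCRE pairs, 1781 of them of 2 members. The numbers were uneven: 42 members were paired with a promoter in this order, and 7 members had no such construct. The median was 21 constructs over the 49, with at most 63. A replicate was at 0 in 88 of the 1105 promoter constructs, 7.96% against 9.54% in the whole library. These constructs were left out of log2 values but counted in the median constructs that serve as baselines below. Replicate 1 held 68 of these zeros, replicate 2 held 18 and replicate 3 held 22. Over 15739 member constructs above 0, log2 activity correlated between replicates with Pearson's r of 0.894 to 0.905, across constructs that are not independent.

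Alone, without a promoter fragment, most members read below the empty reporter with 1 insert position, 31 of the 49 in all 3 replicates, and a few were strongly active. The median member had an activity of 0.115 alone, against 0.0935 for the median of 224 cCREs of the library measured alone, and 0.161, 0.186 and 0.190 in the 3 replicates of the empty reporter with 1 insert position. Members ranged from 0.0180 to 4.49, and 4 members were above 1, as were 15 cCREs of the library. In limma's test of each cCRE's 3 replicate values against the median cCRE alone, with Benjamini-Hochberg adjustment over the library and a threshold of 0.05, 22 of the 49 members were higher and 12 were lower. The library's shares were 37.5% higher and 34.8% lower, and the members' shares were 44.9% and 24.5%. Against the empty reporter, a baseline added after the data were seen, 13 members were higher and 27 lower, and 25.4% and 63.4% of the library. Without replicate 3, 18 members were higher than the median cCRE and 7 lower, where the library's shares were 33.0% and 24.6%.

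The most active member alone was E151, at chr1:119299865-119300315, which lies between genes. Its plus orientation had an activity of 4.08, 4.65 and 4.79 in replicates 1 to 3, and its log2 difference from the median cCRE was 5.56 (SE 0.14, limma adjusted p = 2.28e-06). E128, measured only in its minus orientation, had 1.94, 2.20 and 2.66, with a difference of 4.56. E124 had 1.14, 1.12 and 1.36 in the plus and 1.78, 1.93 and 2.28 in the minus orientation, so that every value lay above the empty reporter. E161 had 1.66, 1.68 and 2.06 in plus and 1.18, 1.18 and 1.50 in minus, and E153 had 0.915, 0.974 and 1.13 in plus and 0.868, 0.911 and 1.04 in minus. E147 was the lowest member, with 0.00188, 0.0457 and 0.0677, and did not pass (limma adjusted p = 0.0501). The lowest members that passed the test were E165, E167, E164, E131 and E117, with log2 differences of -2.34, -1.32, -1.30, -1.30 and -1.29. E165 read 0.00317, 0.0575 and 0.0366, a spread between replicates far wider than that of the active members. Without replicate 2 the call of E165 was lost, and without replicate 3 that of E164.

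Among the 6 members inside long non-coding RNA spans, 5 were higher than the median cCRE alone, and 17 of the 43 members between genes were. The 6 had a median activity of 0.707, from 0.0833 for E141 to 1.54 for E124, and the 43 had a median of 0.107. E140 and E141 lie 1189 bp apart in the same span, and E140 had 0.572, 0.569 and 0.731 where E141 had 0.0738, 0.101 and 0.0772. These values describe 6 fragments in 3 spans and were not tested as a group.

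Many members differed between their orientations alone. Of the 42 members measured in both orientations, 13 had all 3 plus replicates above all 3 minus replicates and 15 had the reverse, 31.0% and 35.7%, against 32.7% and 26.5% of 196 cCREs of the library. The widest gap was in E119, with 0.0258, 0.0604 and 0.0330 in plus and 0.735, 0.683 and 0.732 in minus, a log2 difference of -4.27. E111 went the other way, with 1.91, 1.92 and 1.83 in plus and 0.337, 0.236 and 0.269 in minus, a log2 difference of 2.76. E125 had 0.318, 0.404 and 0.413 in plus and 1.42, 1.78 and 1.87 in minus. These 3 were named after their values were seen.

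Joined to a promoter, 12 of 35 tested members lay above the typical cCRE across promoters, a share near that of the library. The boost index of a cCRE-promoter construct is its log2 activity minus that of the median cCRE-promoter construct sharing the oriented promoter, so 0 stands for the typical cCRE at that promoter. Its mean was taken over all constructs of a cCRE in each replicate and tested against 0 with limma over the 169 cCREs that had at least 3 promoters. Of the 35 members in this test, 12 had a mean above 0 and 13 below it, 34.3% and 37.1%, against 32.5% and 34.9% of the library. The members' median was -0.01, against -0.05 for the library. Without replicate 3, 11 members were above 0 and only 6 below it, where the library's shares were 29.0% and 23.7%. The other 14 members had fewer than 3 usable promoters and no mean boost index, among them E151, E128 and E124, the 3 most active alone.

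E161, at chr1:119348335-119348785 between genes, had the highest mean boost index of the members. Its values were 2.72, 2.35 and 2.53 in replicates 1 to 3 over 17 promoters, with a mean of 2.53 ± 0.19 (SD, n = 3, limma adjusted p = 4.09e-07). Averaged over its constructs at each promoter, it was above 0 with all 17. The single construct E161-P007+ was slightly below 0, at -0.03, -0.05 and -0.04. E125 followed with 2.62, 2.16 and 2.14 over 18 promoters, a mean of 2.31 ± 0.27 (limma adjusted p = 8.81e-07). Averaged in the same way, it was above 0 with all 18. The replicate ranges of E161 and E125 overlap, so their order is not beyond the spread. E140 had 1.90, 1.81 and 1.86 over 9 promoters, E129 had 2.13, 1.58 and 1.70 over 18, and E154 had 1.69, 1.37 and 1.53 over 17. E140 and E129 overlap, as do E129 and E154.

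A second tier of 5 members lay between 0.62 and 1.19. E156 had 1.48, 1.08 and 1.02, E153 had 1.09, 1.03 and 1.40, and E157 had 1.33, 0.90 and 0.64. E111 had 1.07, 0.68 and 0.55, and E148 had 0.85, 0.46 and 0.54. All 5 passed the limma test, with adjusted p from 4.48e-05 for E153 to 0.00236 for E148, and each overlapped the next in that order. E153 and E111 rest on 4 and 6 promoters. E160 and E137, with means of 0.42 and 0.41, also passed.

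The lowest members fell below the typical cCRE by less than the top members rose above it. E142 had -0.76, -0.67 and -1.01 over 15 promoters, a mean of -0.81 ± 0.17 (SD, n = 3; limma adjusted p = 3.97e-04). E131 had -0.99, -0.53 and -0.55, E146 had -0.69, -0.65 and -0.62, E135 had -0.56, -0.65 and -0.45, and E130 had -0.60, -0.57 and -0.36. All 15 replicate values of these 5 were below 0, and each member overlapped the next in that order. The other 8 members called lower had means of -0.50 to -0.29. With the median construct taken once over pooled replicates, which also drops the replicate block, 12 members were higher but only 2 were lower, E142 and E146, where the library's shares were 33.1% and 12.4%. With the lowest 25% of constructs left out, a setting added after the data were seen, 16 members were higher and 4 lower, where the library's shares were 46.7% and 14.5%.

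Set against the promoter alone in place of the typical construct, more members were lower than higher, a direction that turned once the constructs were set relative to empty reporters. The mean log2 change from the promoter alone passed limma's test upward for 9 members and downward for 19 of 35, 25.7% and 54.3%, against 24.9% and 56.8% of the 169 cCREs of the library. E161 rose by 2.29, 2.06 and 2.15 in the 3 replicates and E125 by 2.21, 1.91 and 1.79, followed by E129, E140 and E154 with means of 1.46, 1.41 and 1.18. E142, E131, E146, E116 and E135 had the lowest means, -1.09, -1.04, -0.98, -0.90 and -0.84.

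The lower values could not be told apart from a difference between the kinds of construct. The empty reporter with both insert positions empty had 0.0460, 0.0658 and 0.0654, against 0.161, 0.186 and 0.190 for the empty reporter with 1 position, a log2 difference of -1.62 ± 0.17 (SD, n = 3). The library has 1 empty construct with both positions empty, so this offset, and every value set relative to it, rests on 1 construct. When each construct was set relative to the empty reporter of its kind, a baseline added after the data were seen, all 35 members were higher by limma and none was lower, also at an unadjusted p under 0.05, and 95.3% of the 169 cCREs of the library were higher. The boost index does not use the promoter alone and does not change with this offset.

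Construct by construct, 992 pairs of a member with a promoter could be compared with that promoter alone. Limma called 218 higher and 193 lower, 22.0% and 19.5%, against 23.8% and 19.7% of the 4945 pairs of the library. The 12 members with a raised mean boost index gave 169 of the 218 higher pairs from 349 tested, and the other members gave 49 from 643. These constructs also enter the mean that chose the 12, so the split is a description. The 13 members with a lowered mean gave 129 of the 193 lower pairs from 415 tested and 19 of the higher ones. With the median construct as baseline 244 pairs were higher and 77 lower, where the library's shares were 25.8% and 8.79%. Relative to the empty reporters 603 were higher and 16 lower, where the library's shares were 61.7% and 1.54%. The 411 calls in all came down to 189 without replicate 2 and to 219 without replicate 3.

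The largest rise was that of E124- in front of P033-, the promoter fragment at the start of Marco, a scavenger receptor gene of macrophages. This pair read 5.28, 3.98 and 3.66, while P033- alone read 0.0221, 0.0586 and 0.0496, a log2 difference of 6.73 (SE 0.41, limma adjusted p = 1.39e-04). The same fragments both in plus orientation read only 0.0481, 0.356 and 0.312. E125- raised P017+, the Inhbb promoter, to 1.63, 1.29 and 1.51 from 0.0138, 0.0376 and 0.0640 (5.51, SE 0.57, limma adjusted p = 9.18e-04). It raised P031+, at the start of C1ql2, which encodes a secreted synaptic protein, to 1.85, 1.31 and 1.91 from 0.0209, 0.0407 and 0.0634 (5.46). E161- raised P014+, a fragment at no annotated start, to 1.32, 2.30 and 2.47 from 0.0281, 0.0592 and 0.0773 (5.28). With the promoter in minus orientation, E161-P014- read 0.401, 0.202 and 0.535. In the 4 pairs E124-P033-, E125-P017+, E125-P031+ and E161-P014+ every replicate of the pair lay far above every replicate of the promoter. E143+P006-, second by size with 6.31, is described with the departures.

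The largest falls all ended near the floor of the assay. E135+ with P020+, at the start of the gene 3830432H09Rik, read 0.00977, 0.00107 and 0.00457 against 0.165, 0.164 and 0.190 for P020+ alone, a log2 difference of -5.57 (SE 0.80, limma adjusted p = 0.00330). E138+ and E116- with P006+ read 0.00128, 0.00831 and 0.0262, and 0.00619, 0.0258 and 0.0112, against 0.225, 0.263 and 0.263 for P006+ alone. Their differences were -5.26 and -4.36. Each of the 3 falls spans replicates that differ several-fold among themselves, and the other promoter orientation did not share it: E135+P020- read 0.0900, 0.0852 and 0.139. The call of E135+P020+ was lost without replicate 3 and that of E138+P006+ without replicate 2. With the median construct as baseline E138+P006+ and E116-P006+ did not pass.

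The promoters of the flanking genes rose with most, not all, pairs of the members with a raised mean boost index. With P013, at the start of Gli2, 82 pairs of 32 members were tested, of which 21 were higher and 33 lower, with a median of -0.83. Library-wide 26.5% of P013 pairs were higher and 31.0% lower. E161-P013+ read 2.32, 3.14 and 3.08, E125-P013+ read 2.23, 2.26 and 2.88, and E129+P013+ read 2.22, 1.14 and 2.29, where P013+ alone read 0.196, 0.210 and 0.218. The members with a raised mean gave 20 of the 21 higher pairs, from 27 pairs of 10 members, and these pairs are part of the means that chose them. Another 2 of the 27 were lower: E148+P013- read 0.0438, 0.0341 and 0.0148, against 0.0894, 0.112 and 0.143 for P013- alone (limma adjusted p = 0.0167), and E160+P013+ read 0.0595, 0.0918 and 0.114 (limma adjusted p = 0.0132). In the opposite orientation, E148-P013- and E160-P013+ were both higher. E137 and E111 passed in none of their pairs with P013. E125 lies 70826 bp and E161 294341 bp from P013 by the deposited distance, and the replicates of their pairs overlap.

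With P017, at the start of Inhbb, only 11 pairs of 8 members were tested. Of these, 5 were higher and none was lower by limma, also at an unadjusted p under 0.05, where 28.6% and 1.79% of the library's 56 pairs were called. Beside E125-P017+ these were both E156+ pairs, E168-P017- and E144-P017-. E156+P017- read 0.594, 1.67 and 1.10, and E156+P017+ read 0.414, 0.403 and 0.520. E168- and E144- with P017- read 0.368, 0.450 and 0.523, and 0.328, 0.419 and 0.453, against 0.0297, 0.0832 and 0.0816 for P017- alone. E168 and E144 had mean boost indices of -0.37 and -0.45, and E168-P017+ read 0.0299, 0.0425 and 0.0480, within the range of P017+ alone. Of the members with a raised mean, 3 had pairs with P017: E137-P017+ read 0.0183, 0.0535 and 0.136 and did not pass, nor did E156-P017+ with 0.0825, 0.112 and 0.138. E161 had no pair with P017. All pairs named with these 2 promoters beside E125-P017+ were chosen after their values were seen.

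How far the active members lay above the typical construct varied from promoter to promoter. Over the 12 members with a raised mean, and among the 17 promoters with at least 5 of them, the mean boost index ran from 0.24 at P010 to 2.49 at P031. It was 0.37 at P007 (Nifk), 0.48 at P022 and 0.70 at P018 (Ralb), and 2.26 at P012 (Tfcp2l1), 2.11 at P014 and 1.87 at P013 (Gli2). The 4 promoters with the smallest rise had activities of 2.00 to 4.96 alone, as means over orientations, and the 4 with the largest 0.0386 to 0.153. Over the 17 promoters the mean boost index and log2 of the promoter's own activity had Pearson's r of -0.72 and Spearman's rho of -0.61, a description only, since the promoter's level enters the boost index and the points share the same members and replicates. P019 (Tmem185b), with a mean boost index of 1.26 over 7 members, cannot be placed in that order. It read 8.67 alone in plus, the value used for it in both coefficients, and was not measured alone in minus. Its median construct read 8.73 in plus and 0.503 in minus. Of its 25 member pairs with a boost index, 3 could be compared with P019 alone. Averaged over constructs at a promoter, E161 itself ranged from 0.22 at P007 to 4.68 at P012, and E125 from 0.35 at P010 to 5.12 at P031. With P010, 25 of 57 member pairs were lower than the promoter alone and none was higher by limma (1 at an unadjusted p under 0.05), where 44.4% and 7.67% of the library's pairs were called. These counts use the promoter alone and share the limit given for that baseline.

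Over distance between cCRE and promoter in the genome, the members' boost indices showed little order. Their median was 0.38 over 117 pairs under 100 kb apart, -0.04 over 381 pairs of 100 to 500 kb and 0.02 over 519 pairs further apart. Spearman's rho between distance and boost index was -0.03 over 1017 pairs that share 23 promoters and the same members. The pairs under 100 kb came from 25 members, so the bins hold different cCREs.

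Some neighbours on the chromosome lay far apart in activity. E160, E161 and E162 lie in a row with gaps of 130 and 21 bp, and had mean boost indices of 0.42, 2.53 and -0.40, with no overlap between their replicates. E129 and E130, 609 bp apart, had 1.80 and -0.51. E140, E141 and E142, with gaps of 1189 and 1067 bp, had 1.86, -0.06 and -0.81. These neighbours were chosen after their values were seen. Members whose coordinates overlap share sequence. E130 and E131 share 269 bp and had -0.51 and -0.69, E133 and E134 share 85 bp and had -0.36 and -0.29, and E134 and E135 share 43 bp and had -0.29 and -0.55. E157 and E158 share 161 bp and had 0.96 and 0.24. E158 did not pass, and its replicates of 0.48, 0.08 and 0.15 lay below all of E157's. E108 and E109 share 67 bp, and E109 had too few promoters for a mean.

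Single constructs could stand far from the rest of their cCRE. A departure here is a pair's boost index minus the mean of the same cCRE over its other promoters. Limma called 116 higher and 86 lower among 1007 member pairs, 11.5% and 8.54%, against 12.7% and 9.45% of the 5017 pairs of the library. At least 1 call fell on 34 of 35 members. The share of library cCREs with a call is not given here, so that count sets the members apart in no way. These calls rested heavily on the replicates: the fit that left out replicate 2 called no pair (limma, with 284 member pairs at an unadjusted p under 0.05). Leaving out replicate 1 gave 88 calls and leaving out replicate 3 gave 35.

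The 5 largest departures were all rises, by cCREs whose mean boost index was near or below 0. E143+P006- read 5.22, 5.87 and 5.59, a departure of 6.74 (SE 0.25, limma adjusted p = 0.00650). E143-P006- and E143+P006+ read 0.00503, 0.0363 and 0.0725, and 0.00194, 0.0579 and 0.111, so only 1 of the 3 measured arrangements of these fragments was active. E133-P033+ read 2.53, 2.56 and 2.19 (6.53), and its other measured arrangement, E133-P033-, read 0.00117, 0.0502 and 0.0145. E139+P033+ read 1.15, 1.23 and 1.39 (5.36), where E139+P033- read 0.0122, 0.0905 and 0.0900.

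The remaining pair of large departures had all 4 arrangements listed. E143-P016- read 2.40, 2.47 and 2.66 (5.30), while E143+P016-, E143+P016+ and E143-P016+ read between 0 and 0.120. E159+P015+ read 0.998, 1.18 and 0.977 (5.18), while E159-P015-, E159-P015+ and E159+P015- read between 0 and 0.0556. In each of these 5 the 3 replicates lay close together. The replicates share their plasmids, so this closeness does not cover variation among the plasmids of a construct.

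Orientation was also compared in front of promoters. The mean log2 difference of plus over minus orientation at the same oriented promoter could be tested for 19 members, of which limma called 6 higher in plus and 2 in minus, 31.6% and 10.5%, against 26.7% and 16.7% of 90 cCREs of the library. E125 was higher in minus by 1.33, 1.52 and 1.72 in the 3 replicates (mean -1.52, SE 0.13, limma adjusted p = 0.00329, 13 promoters), the same side as alone. E156 was higher in plus, by 1.12, 0.61 and 1.05 over 18 promoters (mean 0.93, limma adjusted p = 0.0115), also as alone. E161 had -0.56, although its plus orientation was the more active alone. E107, E159, E130, E146 and E142 were higher in plus with means of 0.74, 0.61, 0.56, 0.49 and 0.42. Alone, E130, E146 and E142 were on the minus side, as was not so in front of promoters. Their log2 differences alone were -1.02, -1.51 and -1.92, with no overlap between the replicates of plus and minus. E159 had -0.49 and E107 had 0.02 alone, both with overlap. The value of E107 changed with the low constructs: it was 0.16 and did not pass with the lowest 10% of constructs left out, and turned to -0.46 with the lowest 25% left out. Averaged by the median over promoters it was 0.02. Without replicate 2 the calls fell to 3, without replicate 3 to 1, which was E125, and averaging promoters by the median to 3.

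Beside another cCRE in place of a promoter, the members with a raised mean boost index were higher again, in another order. Activity of each cCRE pair was centred on the median pair with the same partner in the same position, averaged per cCRE and tested with limma over 202 cCREs with at least 10 partners. Of 39 members 15 were higher and 17 lower, 38.5% and 43.6%, against 38.1% and 52.0% of the library. All 12 members with a raised mean boost index were among the 15, 11 of the 13 lowered ones were among the 17, and no member was called in opposite directions. The same overlap over the library is not given here, so it cannot be called particular to these members. Over the 35 members with both values Pearson's r was 0.89 and Spearman's rho 0.80. Alone and boost index had 0.83 and 0.61 over the same 35, and alone and cCRE pairs 0.85 and 0.66 over 39. All 3 readouts come from the same transfections and fragments, so these are descriptions.

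E161 led again with 3.67, 3.30 and 3.50 over 169 partners, followed by E111 with 3.22, 2.88 and 2.74 and E129 with 3.25, 2.77 and 2.64. E153, E140 and E125 had means of 2.52, 2.31 and 2.11. E111 stood ninth by mean boost index on 6 promoters and second here on 99 partners. The lowest members were E159, E135, E131, E117 and E130, with means of -1.05, -1.01, -0.99, -0.97 and -0.94. E159 read -1.27, -0.94 and -0.95, although its mean boost index was 0.10 and did not pass. Limma gave every cCRE the same SE of 0.10 here, a spread pooled over the library.

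Most members were more active as the first than as the second fragment of a cCRE pair. The members with a raised mean boost index were split: 6 were among the 9 with the opposite sign, and 5 were higher when first. The first minus the second position, at partners measured in both orders with the same orientations, was above 0 for 22 of 34 members and below 0 for 9 by limma, 64.7% and 26.5%, against 52.8% and 23.0% of 161 cCREs of the library. A construct pair counts once for each of its 2 cCREs with opposite sign, so the values of partners are not independent. E111 had the most negative value: over 20 matched pairs with 15 partners its geometric mean activity was 0.513, 0.439 and 0.393 when first and 2.11, 2.14 and 2.02 when second, a log2 difference of -2.23 (SE 0.08, limma adjusted p = 0.00114). E154 had 0.381, 0.447 and 0.424 when first and 0.991, 0.994 and 1.01 when second. E139, E148 and E129 had -1.05, -0.90 and -0.81.

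The most positive values were those of E107, E146, E162, E137 and E123, at 0.96, 0.91, 0.90, 0.77 and 0.76. E107 read 0.188, 0.272 and 0.246 when first and 0.0826, 0.149 and 0.139 when second. Members with a raised mean boost index were on both sides, 5 of them higher when first, such as E156 by 0.60 and E140 by 0.47. Over 34 members the position difference and the activity alone had Pearson's r of -0.58 and Spearman's rho of -0.44.

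More cCRE pairs were below than above the level of their stronger cCRE alone, again a direction that turned relative to the empty reporters. Of 14608 member pairs with both cCREs measured alone, limma called 2751 higher and 5314 lower than the stronger one, 18.8% and 36.4%, against 18.5% and 36.8% of the library's 39747 pairs, with a median of -0.69 in both. Where the stronger cCRE had an activity above 1 alone, 20.5% of 2500 member pairs were higher and 36.2% lower, with a median of -0.31, against 18.4% and 39.1% of the library's 7598. Relative to the empty reporters, 6981 member pairs were higher and 972 lower, where the library's shares were 47.9% and 7.17%. Against the sum of both cCREs 1976 were higher and 7545 lower, where the library's shares were 13.4% and 51.4%. Without replicate 2 the counts were 1690 and 3485, and without replicate 3 they were 2043 and 3318.

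Among the 1603 of the 1781 pairs of 2 members that could be compared with both members alone, the most active joined members that were active elsewhere, with 1 exception. E156+E111+ read 7.65, 10.1 and 8.50, above both E111+ alone at 1.91, 1.92 and 1.83 and E156+ alone at 0.376, 0.372 and 0.385 (2.20 over the stronger, SE 0.18, limma adjusted p = 3.61e-04). E156+E111- read 4.66, 4.31 and 3.98. E129+E161+ read 6.87, 8.34 and 8.21, and the 5 other arrangements of E129 with E161 read 3.79 to 7.02. E156+E161+ and E156+E161- read 6.29, 6.80 and 7.39, and 5.44, 6.49 and 6.57, while the 3 arrangements with E161 first read 1.15 to 3.19. The exception was E144+E162-, at 7.57, 6.10 and 7.18 (6.44 over the stronger). Its 7 other measured arrangements read 0.00572 to 0.121, and both members had lowered mean boost indices.

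The 3 members most active alone had few constructs. E151 was measured in 2 cCRE pairs: E151+E091- read 2.23, 2.06 and 1.48, below E151+ alone by 1.24 (limma adjusted p = 0.00491), and E186-E151- read 0.910, 1.85 and 1.67. E128- was measured second in 5 pairs, which ran from 0.162, 0.291 and 0.230 in E013+E128- to 4.91, 7.05 and 5.87 in E059+E128-. E124 was in 9 cCRE pairs, from 0.300, 0.151 and 0.135 in E124+E103- to 12.0, 12.4 and 10.5 in E124+E060+, whose partner E060+ alone read 16.4, 15.9 and 14.3. These numbers give no mean over partners that could be set beside E161 or E125.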

How the data were processed

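Activities of the Tfcp2l1 Upstream library in 3 cDNA replicates were taken as the authors deposited them. Per the labels and file headers they are a ratio of barcodes in reporter cDNA to barcodes in plasmid DNA per construct, on a linear scale. The submitters' processing notes name Bowtie2 and the mm10 build, and counting, filters and the scaling that sets 1 are not given in the sources used here. The authors' deposited boost index, on a log2 scale, served only as a check: recomputed from geometric means over replicates, it matched within 0.001 for all 5065 constructs with a finite value. A further 15 columns of per-sample values were not used.

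Constructs that read 0 in any replicate were left out of the tested values and means, and the rest were taken to log2. The median promoter constructs and median cCRE pairs used as baselines were taken over all constructs, those at 0 included. The boost index was computed per replicate, with that replicate's own median construct, and averaged over a cCRE's constructs, so that constructs are not counted as replicates. It is lower than the deposited one by a median of 0.16 per member. Tests were fitted with limma 3.58.1 (lmFit, eBayes) in R 4.3.3 over the whole Tfcp2l1 library, with Benjamini-Hochberg adjustment over each whole comparison at 0.05, and member values were drawn from them. A mean boost index or an orientation or position difference needed at least 3 promoters or partners, and a mean over cCRE pairs at least 10 partners. The fits were tested on simulated data. Tables were made with Python 3.11.15, numpy 2.4.6 and pandas 2.3.3. The replicate numbers pair a construct with its baseline, since both were measured in the same 3 transfections, so a fit with replicate as a block was an alternative.

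The members, the motifs and the tests were chosen with earlier results of these data known. Named are the 10 members with the highest and 5 with the lowest mean boost index, the 5 highest alone, and up to 5 called members each way per test, or all where at most 10 were called. Also named are the 5 highest and 3 lowest called promoter pairs, the 5 largest departures, the 5 most active pairs of 2 members and overlapping members. Sequences were meant for the fragment centres of the highest and lowest members, but no genome was used here, and the bases inside RefSeq promoter windows of GRCm38.p6 were taken instead. Gene names of promoter fragments come from overlap with these windows. With 3 values against 3, an exact permutation test of a single construct cannot go below p = 0.10.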

Additional observations from a re-analysis of the deposited data

How the results depend on the processing

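The number of members or member pairs called, both directions together, stayed within 1.5 times its value under each alternative not named here. By direction more counts moved, beside those against other baselines given above: without replicate 3 the lower calls went from 13 to 6 for the mean boost index and from 12 to 7 alone, and without replicate 1 the orientation calls were 3 and 3 against 6 and 2. With the lowest 25% of constructs left out, lower calls went from 13 to 4 for the mean boost index, from 5314 to 3073 for cCRE pairs, from 86 to 138 for departures and from 2 to 4 for orientation. Among 81 single values named in the text, 578 of 626 recomputed values kept their direction and their side of the threshold, 42 lost the call and 6 reversed. With the replicate as a block, 393 pairs against the promoter alone and 7673 cCRE pairs against the stronger cCRE were called, against 411 and 8065, and none of the 13 named values recomputed under this pairing changed its call. Leaving out 1 replicate gave 189 to 382 pairs against the promoter alone, 5175 to 6881 cCRE pairs against the stronger cCRE, 1 to 6 orientation calls against 8, and 0 to 88 departures against 202 (limma, with 284 at an unadjusted p under 0.05 where none passed). Pooling the basal activity over replicates, without the replicate block, gave 14 mean boost index calls against 25, and the median over partners gave 3 orientation calls. Relative to the empty constructs 619 pairs against the promoter alone were called, and the mean changes of E116, E131, E135, E142 and E146 from the promoter alone turned to 0.71, 0.58, 0.78, 0.52 and 0.64. This follows from the offset between the 2 empty constructs. With the lowest 25% of constructs left out the orientation difference of E107 turned to -0.46, and the cause was not tested. That setting, the empty baselines and a basal activity from at least 10 constructs were added after seeing the data. Depth per construct is unknown, so how far counting noise limits the lowest activities was not tested.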
